A study of Mus musculus with 25 samples.

Results

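The aryl hydrocarbon receptor and a set of genes around it were followed in bulk RNA-seq of tumour preparations, as 7 genes picked by symbol out of 25006 entries in the expression table. They are the receptor gene Ahr, its partner gene Arnt, the repressor and feedback genes Ahrr and Tiparp, and the enzyme genes Cyp1a1, Cyp1b1 and Nqo1. The genes were picked with the anti-CD73 against control contrast of these libraries already known, so their differences between the groups are a description and carry no test. Libraries came from tumours of E0771, a mammary carcinoma line of the mouse strain C57BL/6. The 3 anti-CD73 libraries are from tumour-bearing mice given an antibody against CD73 every 3 days, and the 3 control libraries are labelled only as controls. CD73, encoded by Nt5e, is the cell-surface enzyme that forms adenosine from AMP. The sources used here do not state the age of the mice, what the controls received or whether animals were pooled. The other 19 of the 25 samples, from cultured spleen cells, were not analysed here.

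The aryl hydrocarbon receptor is a transcription factor of the bHLH-PAS family that waits in the cytosol with the chaperone HSP90 and is switched on by small planar molecules, among them dioxins, indoles and the tryptophan product kynurenine. With a ligand it moves to the nucleus, pairs with ARNT and binds a short element with the core GCGTG. Its best known targets are the cytochrome P450 genes Cyp1a1 and Cyp1b1, and it also induces its own brakes, the repressor encoded by Ahrr and the mono-ADP-ribosyltransferase encoded by Tiparp. ARNT is shared with the hypoxia-inducible factors, and Nqo1 is a target of the antioxidant factor NRF2 as well, so neither gene reads out the receptor alone. In tumours the receptor is studied in T cells, macrophages and dendritic cells as well as in the carcinoma cells.

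The windows around the transcription starts of Cyp1a1, the textbook target, and of Tiparp and Nqo1, the pair of members that were lower in every anti-CD73 library, are shown because they differ in the receptor's core element. Each window runs from 250 bases before to 50 bases after a RefSeq start on GRCm38.p6, the assembly of mm10, 5′ to 3′ on the strand of the gene. Capitals mark GCGTG, or CACGC where the element lies on the other strand.
Cyp1a1 promoter (chr9:57697363-57697662, plus strand): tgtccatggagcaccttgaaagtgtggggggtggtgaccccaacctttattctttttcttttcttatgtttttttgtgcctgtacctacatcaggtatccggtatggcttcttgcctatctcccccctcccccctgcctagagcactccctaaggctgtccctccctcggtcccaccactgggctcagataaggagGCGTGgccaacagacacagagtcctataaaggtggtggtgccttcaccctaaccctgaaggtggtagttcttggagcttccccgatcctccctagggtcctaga
Tiparp promoter (chr3:65528197-65528496, plus strand): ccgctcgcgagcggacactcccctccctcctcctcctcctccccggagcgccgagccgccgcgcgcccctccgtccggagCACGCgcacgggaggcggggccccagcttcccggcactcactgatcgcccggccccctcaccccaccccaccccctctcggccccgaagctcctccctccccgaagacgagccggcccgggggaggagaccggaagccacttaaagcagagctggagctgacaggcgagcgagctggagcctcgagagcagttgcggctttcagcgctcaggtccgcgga
Nqo1 promoter (chr8:107403156-107403455, minus strand): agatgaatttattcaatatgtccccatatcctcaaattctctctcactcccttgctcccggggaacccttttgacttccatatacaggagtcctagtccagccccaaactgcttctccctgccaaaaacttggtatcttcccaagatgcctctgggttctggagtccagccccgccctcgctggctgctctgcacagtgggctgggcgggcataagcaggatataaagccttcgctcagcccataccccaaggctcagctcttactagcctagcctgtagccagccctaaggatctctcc
The Cyp1a1 window holds 1 GCGTG, from -54 to -50 relative to the start. The Tiparp window holds 1 on the opposite strand, from -170 to -166. The Nqo1 window holds 0. Of the 7 members, 6 matched the promoter table and Ahr did not. The Ahrr window holds 3 copies of the core, at -107, -82 and -27 for their first bases, the Arnt window 1 at -29, and the Cyp1b1 window 1 on the opposite strand at -76. Thus 5 of 6 windows held the core on either strand, as did 32.4% of 32851 mouse windows of this length. The core of the antioxidant response element, searched on both strands as TGACNNNGC, was in 1 of the 6 windows, that of Arnt, and in 12.4% of all windows. The 2 motifs did not overlap in it. The Nqo1 window held neither motif. Sequence outside these windows was not searched, so elements farther upstream would be missed, and a match to a core does not show binding.

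The libraries held 11618374 to 13172235 recovered reads after anti-CD73 and 10180624 to 17161679 in the controls. The labels call the material enriched CD8+ T cells, but 10 T cell markers together took 0.00248 to 0.00503% of the reads after anti-CD73 and 0.00135 to 0.00502% in the controls, none of them at 0. The 12 macrophage markers took 0.0837 to 0.149% after anti-CD73 and 0.0516 to 0.0972% in the controls. The values below therefore describe a mixed tumour preparation. In such bulk material fewer cells of a type and less RNA per cell cannot be told apart. Control replicate 1 stands apart from control replicates 2 and 3, for example in its 7 erythroid markers, which took 0.243% of its reads and 1.88 and 1.87% of theirs, so results are also given without it. Nothing in the labels ties the replicates to separate animals, so p-values measure the spread between these libraries, which may be technical. All levels below are normalized counts, meaning reads divided by a size factor per library. They are not per length, so levels of different genes are not compared.

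The receptor gene varied widely between control libraries and its partner gene did not. Ahr (ENSMUSG00000019256; mm10 chromosome 12, 35497979 to 35534989) stood at 154.4, 155.6 and 112.1 normalized counts in anti-CD73 replicates 1, 2 and 3, against 134.0, 78.6 and 20.95 in control replicates 1, 2 and 3. The anti-CD73 libraries lay close together, while the controls spread over 6.40-fold, and the groups overlapped because control replicate 1 exceeded anti-CD73 replicate 3. The means were 140.7 ± 24.8 after anti-CD73 and 77.8 ± 56.5 in controls (SD, n = 3 each), and the log2 fold change was 1.18 with a standard error of 0.61. All fold changes here are on the log2(normalized count + 1) scale, anti-CD73 over control. This value leaned on single controls, at 1.75 without control replicate 1 and 0.44 without control replicate 3. Arnt, which encodes the nuclear partner (ENSMUSG00000015522; chromosome 3, 95434367 to 95497240), stood at 1412, 1608 and 1491 normalized counts after anti-CD73, against 1275, 1420 and 1347 in the controls. The groups overlapped in Arnt too, and its log2 fold change of 0.16 (SE 0.11) was small. The coefficient of variation of Arnt was 6.56% after anti-CD73 and 5.38% in controls, and that of Ahr was 17.6% after anti-CD73 and 72.6% in controls.

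Of the feedback genes, Tiparp was lower in every anti-CD73 library and Ahrr had too few reads to compare. Tiparp, whose product attaches single ADP-ribose units to proteins and damps the receptor (ENSMUSG00000034640; chromosome 3, 65528447 to 65555518), stood at 3962, 3761 and 4277 normalized counts after anti-CD73, against 7105, 6696 and 6301 in the controls. Every anti-CD73 library lay below every control, and the highest library was 1.14 times the lowest after anti-CD73 and 1.13 times in the controls. The means were 4000 ± 260.0 after anti-CD73 and 6701 ± 402 in controls (SD, n = 3 each), their ratio was 0.597, and the log2 fold change was -0.74 (SE 0.11). Ahrr, which encodes a repressor that competes with the receptor for ARNT (ENSMUSG00000021575; chromosome 13, 74211118 to 74292331), had 4, 2 and 0 reads after anti-CD73 and 6, 0 and 2 in the controls. That is 6 of 36788368 reads (exact 95% Poisson interval 2.20 to 13.1) after anti-CD73 and 8 of 40151969 (3.45 to 15.8) in controls, and no difference was detectable at this depth. These intervals cover counting error only.

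**Figure D1:**
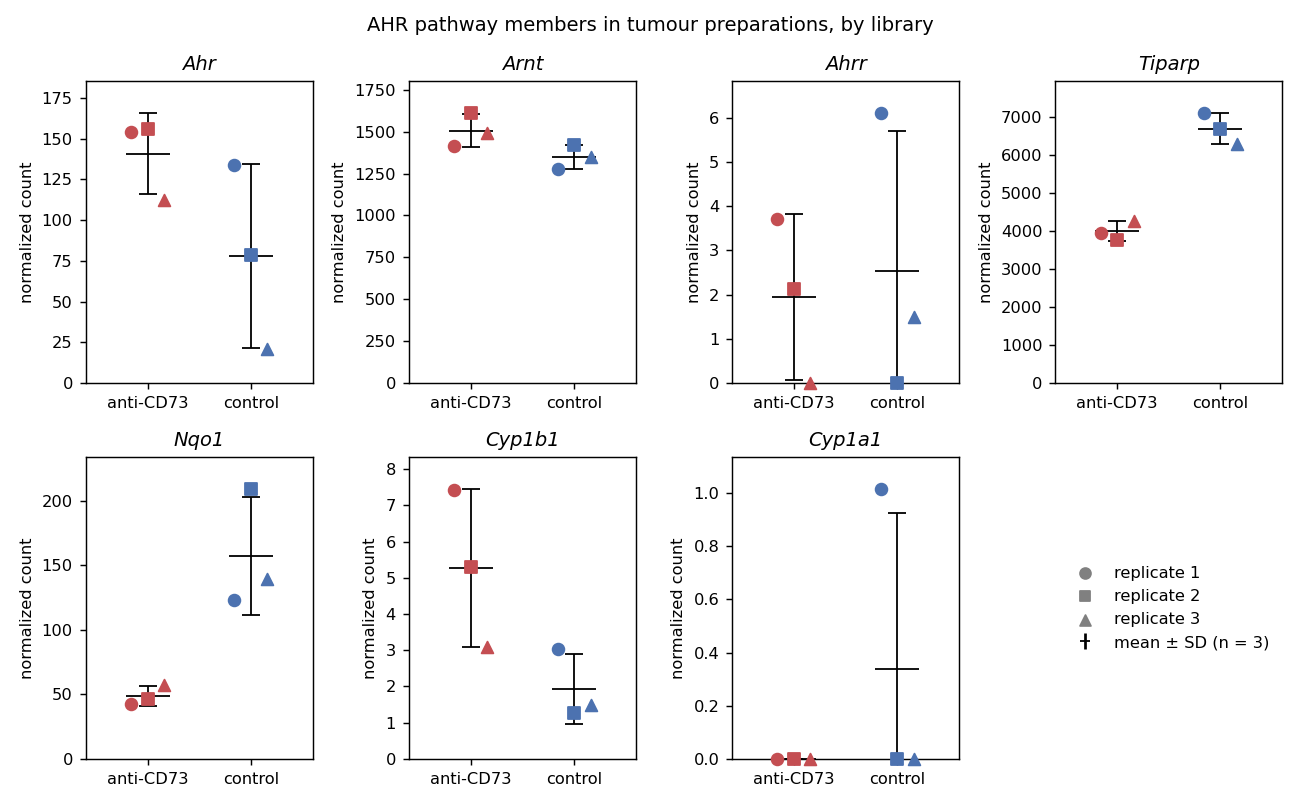
Normalized counts of the 7 genes in each library (y axes differ and start at 0), with anti-CD73 on the left and control on the right of each panel, symbols for replicates, and the mean ± SD of 3 libraries. The anti-CD73 points of Tiparp (3761 to 4277) and Nqo1 (42.8 to 57.6) all lie below the control points, the Ahr controls spread from 20.95 to 134.0, and Ahrr, Cyp1b1 and Cyp1a1 stay below 8 normalized counts.

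Of the enzyme genes, the quinone reductase gene differed most and the P450 genes were barely present. Nqo1, which encodes the cytosolic reductase that turns quinones into hydroquinones (ENSMUSG00000003849; chromosome 8, 107388225 to 107403205), stood at 42.8, 46.6 and 57.6 normalized counts after anti-CD73, against 122.9, 209.1 and 139.2 in the controls. The highest anti-CD73 library was below the lowest control. The means were 49.0 ± 7.69 after anti-CD73 and 157.0 ± 45.8 in controls (SD, n = 3 each), a ratio of 0.312 and a log2 fold change of -1.63 (SE 0.25). Of all tested genes, 0.0734% had a lower fold change, which describes its place and is no test, since Nqo1 was picked with this contrast known. Cyp1b1, a P450 that oxidizes oestrogens and polycyclic hydrocarbons (ENSMUSG00000024087; chromosome 17, 79706940 to 79715061), had 8, 5 and 3 reads after anti-CD73 and 3, 1 and 2 in the controls. Summed over 36788368 reads after anti-CD73 that is 16 (exact 95% Poisson interval 9.15 to 26.0), and over 40151969 reads in controls it is 6 (2.20 to 13.1). The intervals overlap, which is not a test of a difference, and anti-CD73 replicate 3 and control replicate 1 both had 3 reads. The ratio of the mean normalized counts was 2.72, resting on 22 reads in all. Cyp1a1, the gene most used as a sign of an active receptor (ENSMUSG00000032315; chromosome 9, 57687928 to 57703824), had 0 reads in all 3 anti-CD73 libraries, which, with a floor of 3 counts in the 36788368 reads of the group, allows a share of up to 8.15e-06%. The controls held 1 Cyp1a1 read, in replicate 1. No fold change is given for Cyp1a1, since both groups were under the floor.

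Of the 7 genes, 4 had the mean of at least 10 normalized counts required for the test across genes, and Ahrr, Cyp1a1 and Cyp1b1 did not. With all 6 libraries, 0 of the 4 passed limma's test at an adjusted p of 0.05, as did 0% of the 12262 genes tested, and 1902 genes had an unadjusted p under 0.05. Tiparp and Nqo1 had lower values in every anti-CD73 library than in any control, a pattern that 12% of all tested genes showed in that direction and 23.5% in either. Without control replicate 1, limma called Ahr, Tiparp and Nqo1, and 22.2% of all genes (11.9% higher and 10.3% lower). DESeq2 on the recovered reads called Tiparp and Nqo1, and 5.05% of the genes it gave an adjusted p, while edgeR called 0 of the 4 and 0% of all genes. Leaving out single libraries moved the log2 fold change of Nqo1 between -1.79 and -1.41 and that of Tiparp between -0.79 and -0.70, whereas that of Ahr ran from 0.44 to 1.75.

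**Figure D2:**
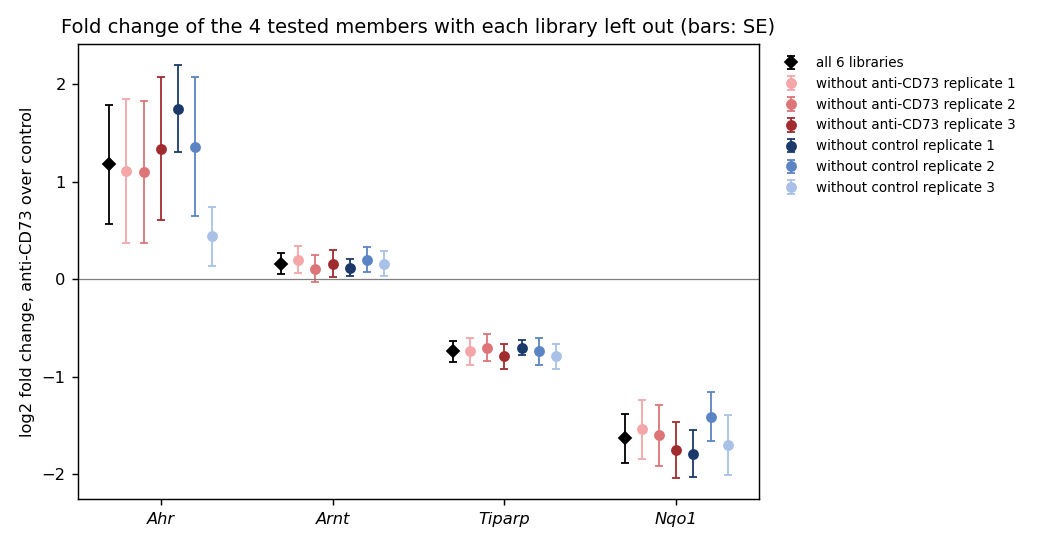
Log2 fold change, anti-CD73 over control, of the 4 tested members with all 6 libraries (black diamonds) and with each library left out in turn (circles); bars are standard errors. Tiparp and Nqo1 keep their place below 0, Arnt stays near 0, and Ahr drops to 0.44 without control replicate 3.

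Across libraries, Ahr rank-ordered as the macrophage markers did. The 12 macrophage markers took 0.117, 0.149 and 0.0837% of the reads of anti-CD73 replicates 1, 2 and 3, against 0.0972, 0.0581 and 0.0516% in control replicates 1, 2 and 3. Ranked from low to high, Ahr gave the same order of the 6 libraries as this share. Control replicate 3 was lowest, control replicate 1 lay between anti-CD73 replicates 3 and 1, and anti-CD73 replicate 2 was highest. The Ahr values of anti-CD73 replicates 1 and 2 were nearly equal, at 154.4 and 155.6 normalized counts. The order of the dendritic cell share, given below, differed only by a swap of these libraries. All 12 macrophage markers, such as the receptor genes Csf1r and Adgre1, had a log2 fold change above 0, with a median of 0.65. Their groups did not all separate. Csf1r was highest in anti-CD73 replicate 2, at 1299 normalized counts. Adgre1 was highest in control replicate 1, at 745, against 616, 590 and 429 in anti-CD73 replicates 1, 2 and 3. The dendritic cell markers were likewise lowest in control replicates 2 and 3, at 0.0422, 0.0363 and 0.0186% after anti-CD73 and 0.0319, 0.00725 and 0.00656% in the controls, as were the T cell markers. Log2 fold changes were above 0 in all 7 tested dendritic cell markers (median 0.93) and all 10 T cell markers (median 0.67). The part of these cell markers in the Ahr values was not tested. Tiparp and Nqo1 did not take that order: control replicate 1, whose macrophage share exceeded that of anti-CD73 replicate 3, had 7105 normalized counts of Tiparp and 122.9 of Nqo1, above every anti-CD73 library. Of the other lists, 2 separated the groups in their summed share as Tiparp and Nqo1 did, though with the anti-CD73 libraries higher. The 9 neutrophil markers took 0.101, 0.123 and 0.0692% of reads after anti-CD73 and 0.0448, 0.0611 and 0.0529% in the controls, with 6 of 8 tested markers higher, a median log2 fold change of 0.93 and Camp at 0 in at least 1 library. The 8 fibroblast markers took 0.0436, 0.0510 and 0.0471% after anti-CD73 and 0.0350, 0.0397 and 0.0322% in the controls, with 6 of 7 tested markers higher and a median of 0.48. In both summed shares every anti-CD73 library exceeded every control, control replicate 1 included, but single markers did not all do so. The groups separated in S100a9 and Col3a1. They overlapped in S100a8, with 2369 normalized counts in anti-CD73 replicate 3 and 3042 in control replicate 2. In Pdgfra they overlapped too, with 1639 in anti-CD73 replicate 1 and 1941 in control replicate 2. The part of both lists in the Tiparp and Nqo1 values was not tested. The 6 endothelial markers took 0.00575, 0.00687 and 0.00449% after anti-CD73 and 0.00585, 0.00194 and 0.00152% in the controls, with all 3 tested markers higher (median 1.16) and Tek and Cldn5 at 0 in at least 1 library. There control replicate 1 lay among the anti-CD73 libraries, as it did for Ahr. The 8 epithelial markers took 0.0205, 0.0174 and 0.0220% of reads after anti-CD73 and 0.0151, 0.0284 and 0.0363% in the controls, with Krt5, Krt7, Krt14 and Krt19 at 0 in at least 1 library. Most of that share was Krt8, at 1856 to 4559 normalized counts, while no other marker of the list exceeded 112. Control replicate 1 was lowest in that share, highest in Tiparp and, among the controls, lowest in Nqo1. Of the 3 epithelial markers tested, 1 lay higher and 2 lower (median -0.29). Erythroid markers took 0.280 to 1.04% after anti-CD73 and 0.243 to 1.88% in controls, with all 7 lower (median -0.73). Of 4 B cell markers only 1 was tested, and it lay lower (-0.77). The part of these markers in these results was not tested.

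**Figure D3:**
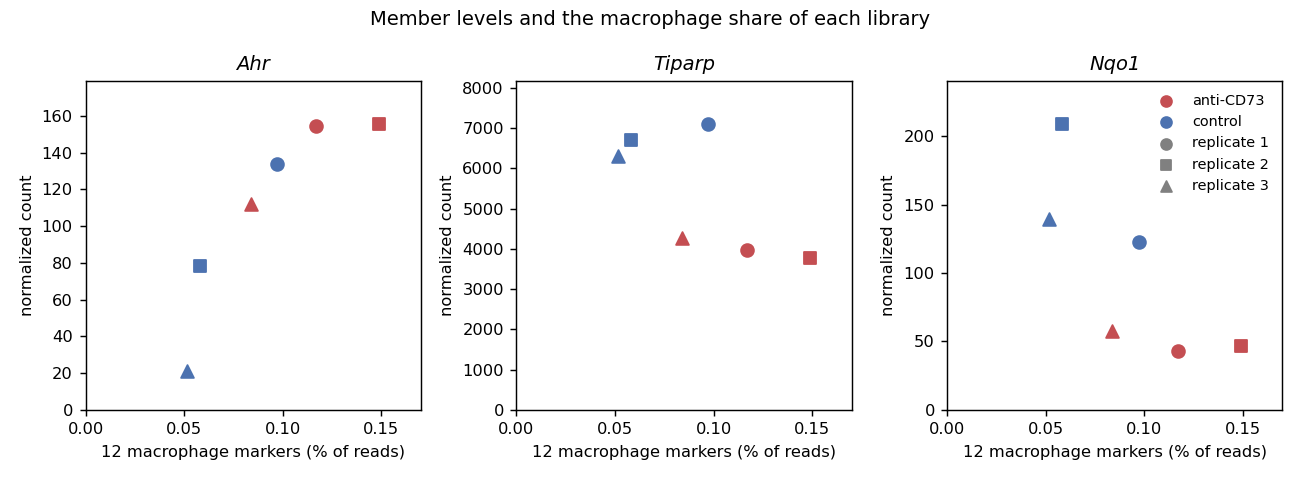
Normalized counts of Ahr, Tiparp and Nqo1 (y axes, from 0) against the share of reads taken by 12 macrophage markers (x axis, %), 1 point per library, with anti-CD73 and control in different colours and symbols for replicates. Ahr climbs with the share and is nearly level between anti-CD73 replicates 1 and 2. Control replicate 1, at 0.0972%, sits with the other controls for Tiparp and Nqo1.

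The genes whose pattern over the 6 libraries was most like that of a member, by Pearson's r of log2(normalized count + 1), differed between members. Both groups enter this r, so a difference between the groups alone makes it high, and it is given as a description. For Ahr they were Trim62 (r = 0.995), Ric1 (0.989) and Pira1 (0.989), the last a member of the paired immunoglobulin-like receptor family of myeloid and B cells. Trim62 and Pira1 had very few reads in control replicate 3, at 2.25 and 1.50 normalized counts, where 1 read makes 0.748. For Arnt they were Zmynd19 (0.995), Rmdn3 (0.981) and Mapre3 (0.974). Tiparp was closest to Cnep1r1 (0.998), Rad18 (0.996), which encodes a ubiquitin ligase of DNA damage tolerance, and Adss (0.995), of adenylate synthesis. Nqo1 was closest to Epdr1 (0.996), the taurine transporter gene Slc6a6 (0.995) and the chromatin protein gene Hmga2 (0.995). A value of r above 0.95 was reached by 81 genes with Ahr, 20 with Arnt, 183 with Tiparp and 97 with Nqo1. Tiparp and Nqo1 had an r of 0.94 with each other, while Ahr had -0.51 with Tiparp and -0.59 with Nqo1.

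The proteins that hold and assist the receptor showed no common direction. Of the 10 chaperone and coactivator genes, all were tested, 5 lay higher and 5 lower after anti-CD73, and limma, edgeR and DESeq2 each called 0 (median log2 fold change -0.01, against 0.0039 over all genes tested). The coactivator gene Ncoa1 averaged 396 ± 79.6 normalized counts after anti-CD73 and 287 ± 52.8 in controls (SD, n = 3 each; log2 fold change 0.46, SE 0.21, limma adjusted p = 0.344). The HSP90 gene Hsp90aa1 had -0.24 (SE 0.25) and the co-chaperone gene Ptges3 -0.37 (SE 0.20), and in both control replicate 1 was the highest library by far, with 3934 normalized counts of Hsp90aa1 against 2005 to 2223 in the other 5. Without that library Hsp90aa1 had 0.07 and Ptges3 -0.14.

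Other bHLH-PAS genes, which can compete for ARNT or pair among themselves, also gave 0 calls with all 6 libraries by limma, edgeR and DESeq2. Of the 13, 8 were tested, 5 lay higher and 3 lower (median 0.05). Epas1, which encodes HIF-2 alpha, averaged 54.4 ± 18.2 normalized counts after anti-CD73 and 26.4 ± 9.71 in controls (log2 fold change 1.02, SE 0.38, limma adjusted p = 0.275). The clock partner gene Arntl2 had 0.42 (SE 0.23), and the clock genes Arntl and Clock had -0.37 (SE 0.15) and -0.31 (SE 0.18). Without control replicate 1 these became 0.68 for Arntl2 and -0.14 for Clock, which had -0.48 without control replicate 3. When control replicate 1 was left out, limma called 3 of the 8 as higher and 0 as lower, against 11.9 and 10.3% of all genes. Of 12 targets of the hypoxia-inducible factors, which share ARNT, all were tested, 9 lay lower and 3 higher, and limma and edgeR called 0 (median -0.14). DESeq2 called 1, Egln3, as lower, against 5.05% of all genes in either direction. The prolyl hydroxylase gene Egln3 averaged 1366 ± 75.8 normalized counts after anti-CD73 and 1961 ± 267 in controls (log2 fold change -0.51, SE 0.13, limma adjusted p = 0.171, DESeq2 adjusted p = 0.0230). The adrenomedullin gene Adm had -0.69 (SE 0.21), while P4ha1 had 0.14 (SE 0.11) and Vegfa 0.15 (SE 0.20), which turned to -0.06 for Vegfa without control replicate 3. Leaving out control replicate 1, limma called 4 of the 12 as lower and 0 as higher, against 10.3% of all genes lower and 11.9% higher.

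Further genes that the receptor is known to induce in some tissue gave 0 calls by limma and edgeR with all 6 libraries. DESeq2 called 1, Nedd9, as higher, against 5.05% of all genes in either direction. Of the 16 genes in this list 10 were tested, 6 lay higher and 4 lower (median 0.35). The classical liver targets were almost without reads, with 1 read of Cyp1a2 after anti-CD73 and 0 in controls, 0 reads of Aldh3a1 after anti-CD73 and 1 in controls, and 1 read of Gsta1 after anti-CD73 and 0 in controls. Entpd1, which encodes CD39, the ectoenzyme that acts just before CD73, averaged 1424 ± 279 normalized counts after anti-CD73 and 772 ± 493 in controls (log2 fold change 1.04, SE 0.40, limma adjusted p = 0.284). Its libraries stood at 1636, 1529 and 1107 after anti-CD73 and 1335, 564 and 418 in control replicates 1, 2 and 3, so that control replicate 1 again lay with the anti-CD73 group, as it did in the macrophage share. The log2 fold change of Entpd1 was 1.53 without control replicate 1 and 0.69 without control replicate 3. The adhesion scaffold gene Nedd9 had 0.66 (SE 0.18, limma adjusted p = 0.183, DESeq2 adjusted p = 0.0413), with groups that did not overlap, as in 11.5% of all genes in that direction. The growth factor gene Ereg had -0.62 (SE 0.29), with control replicate 1 far above the rest, and Nfe2l2, which encodes NRF2 and is also counted with the NRF2 genes, had -0.24 (SE 0.11). Once control replicate 1 was left out, Ereg had -0.25 and Nfe2l2 -0.15, and limma called 5 of the 10 as higher and 0 as lower, against 11.9% of all genes higher and 10.3% lower.

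Genes that make or consume kynurenine, the receptor's ligand from tryptophan, were mostly too low to test. Of 13, 6 were tested, 4 lay higher and 2 lower, and limma, edgeR and DESeq2 each called 0 (median 0.10). The tryptophan dioxygenase gene Ido1 had 5 reads after anti-CD73 and 1 in controls, Tdo2 had 2 after anti-CD73 and 6 in controls, and Il4i1, whose product yields other tryptophan-derived ligands, had 5 after anti-CD73 and 2 in controls. The kynurenine monooxygenase gene Kmo stood at 21.4, 15.9 and 13.4 normalized counts after anti-CD73 and at 23.4, 2.53 and 3.74 in control replicates 1, 2 and 3 (log2 fold change 1.24, SE 0.73, limma adjusted p = 0.454). The Kmo value was 2.10 without control replicate 1, the highest of the 6 libraries, and 0.71 without control replicate 2. Kyat1 had 0.62 (SE 0.42; 0.34 without control replicate 2 and 1.03 without control replicate 3), Afmid -0.11 (SE 0.31) and Kyat3 -0.07 (SE 0.30). The direction of Afmid and Kyat3 depended on which library was left out. Limma called 1 of the 6, Kmo, as higher and 0 as lower without control replicate 1, against 11.9% of all genes higher and 10.3% lower.

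The antioxidant genes that are read beside Nqo1 lay mostly lower after anti-CD73. Of 21 genes of NRF2 and its targets, Nqo1 not among them, all were tested, 17 lay lower and 4 higher after anti-CD73, and limma and edgeR called 0 (median -0.24, against 0.0039 over all genes). DESeq2 called 4 of the 21 as lower, Gclc, Gclm, Txn1 and Ugdh, and 0 as higher, against 5.05% of all genes in either direction. In 7 of the 21 every anti-CD73 library was below every control, against 12% of all genes. The thioredoxin gene Txn1 averaged 5254 ± 435 normalized counts after anti-CD73 and 7537 ± 191 in controls (SD, n = 3 each; log2 fold change -0.52, SE 0.11, limma adjusted p = 0.151, DESeq2 adjusted p = 0.00100). Gclc, the catalytic subunit gene of glutathione synthesis, had -0.63 (SE 0.16, limma adjusted p = 0.174, DESeq2 adjusted p = 0.0238). The opposite direction was seen in the carbonyl reductase gene Cbr1, at 1.23 (SE 0.30) with only 25.9 ± 2.77 normalized counts after anti-CD73 and 10.5 ± 1.34 in controls, and in the glutathione transferase gene Gstm1, at 0.72 (SE 0.47; 1.17 without control replicate 1 and 0.38 without control replicate 3). The log2 fold change of Nqo1, -1.63, lay below the lowest of these 21, which was -0.63. With control replicate 1 left out, limma called 6 of the 21 as lower and 2 as higher, against 10.3% of all genes lower and 11.9% higher.

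**Figure D4:**
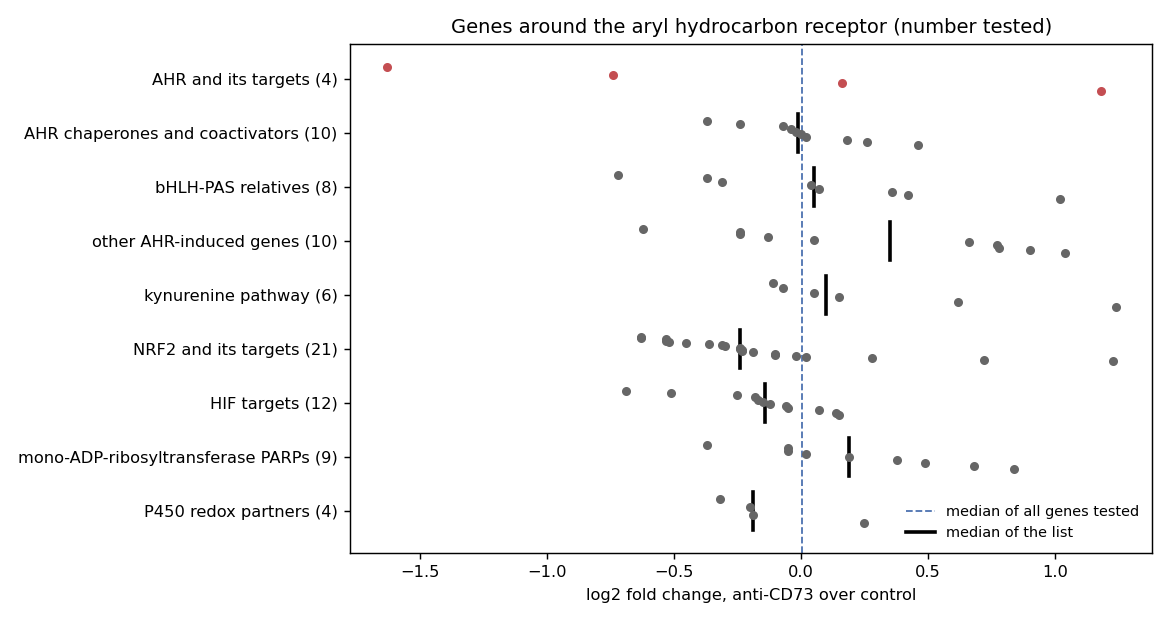
Log2 fold change, anti-CD73 over control (x axis), of every tested gene in each group (rows, number tested in brackets), with black bars for the median of each group except the red row of members, and a dashed line for the median of all 12262 genes tested. Nqo1 (-1.63) and Ahr (1.18) mark the ends of the red row, and the NRF2 row lies mostly below 0 with a median of -0.24.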

How the data were processed

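RNA-seq values of 3 anti-CD73 and 3 control tumour libraries were used, with columns matched to samples by description and title. The deposited signal is a gene count scaled by 1 DESeq size factor for each library, per the labels. The submitters' processing notes name Bowtie 0.12.7 and mm10 but no role for either. The sources used here do not state the counter, the annotation, or the handling of strand and of shared reads, so genes with near copies are uncertain.

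Reads were recovered by dividing each library by its smallest value above 0, which gave whole numbers within 0.01 for 100% of values. The test was limma-trend (limma 3.58.1, R 4.3.3), two-sided, on log2(normalized count + 1) of 12262 genes with a mean of at least 10, with Benjamini-Hochberg adjustment over all of them and a threshold of 0.05. On recovered reads, edgeR 4.0.16 (quasi-likelihood, TMM) and DESeq2 1.42.0 were alternatives. The scripts were tested on simulated data. The members and gene lists were chosen with earlier results of these data known. Named genes are the members, the 2 smallest p per direction in each list and the 3 nearest patterns per member. A gene of the chaperone and coactivator list that this rule names is not reported here. Genes named for low reads or only for a call, and the single markers named, such as Csf1r, Adgre1 and keratins, were chosen after their values were seen. Coordinates and promoters are from RefSeq GRCm38.p6, matched by symbol and 1-based. Figures were drawn with matplotlib 3.10.9.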

Additional observations from a re-analysis of the deposited data

How the results depend on the processing

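With all 6 libraries limma called 0 genes. This count stayed at 0 under other pseudocounts (0.5 and 8), other filters (none, or a mean of 50 or more), other scalings (TMM, quantile), robust empirical Bayes, and edgeR. It was 595 by DESeq2 (352 higher, 243 lower). With each library left out in turn it ran from 0 to 2724. The 2724 came without control replicate 1 (1465 higher, 1259 lower), and every other library left out gave 0. The cause was not tested. With a replicate block by title number it was also 0. Libraries of the same title number did not all deviate together (correlations of 0.189, -0.0963 and 0.262), so these numbers were not taken to pair the samples. The block changed no call. The sample descriptions number some of the libraries differently from the titles, and a block by those numbers was not fitted. Over the 16 alternatives, log2 fold changes ranged from 0.44 to 1.75 for Ahr, 0.11 to 0.20 for Arnt, -0.79 to -0.65 for Tiparp and -1.80 to -1.41 for Nqo1, so none of the 4 changed sign. Among the other named genes, directions turned in 5, each time with a library left out. Their ranges over the libraries left out were -0.41 to 0.07 for Hsp90aa1, -0.45 to 0.06 for Afmid, -0.24 to 0.25 for Kyat3, -0.06 to 0.35 for Vegfa and -0.18 to 0.03 for Parp6. Depth limits Ahrr, Cyp1a1 and Cyp1b1, with 14, 1 and 22 reads over all libraries.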

Other observations

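Tiparp is 1 of a family of PARP genes whose products attach single ADP-ribose units, and most of its relatives did not share its direction. Of 9 such genes, all tested, 6 lay higher and 3 lower after anti-CD73, with 0 called by limma and edgeR and 1, Parp10, by DESeq2, against 5.05% of all genes (median log2 fold change 0.19, against 0.0039 over all genes). Parp10 averaged 1477 ± 329 normalized counts after anti-CD73 and 811 ± 73.6 in controls (SD, n = 3 each; log2 fold change 0.84, SE 0.18, limma adjusted p = 0.152, DESeq2 adjusted p = 0.00270). Parp14 had 0.68 (SE 0.35), Parp6 -0.05 (SE 0.17) and Parp16 -0.37 (SE 0.17). Parp14 had 1.07 without control replicate 1 (limma adjusted p = 0.00529) and 0.37 without control replicate 2. With control replicate 1 left out, limma called 5 of the 9 as higher and 1 as lower, against 11.9% of all genes higher and 10.3% lower. Parp9, Parp10, Parp12 and Parp14 are known as interferon-induced genes.

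Of 4 genes for P450 reductase, cytochrome b5 proteins and cytochrome b5 reductase, listed as redox partners of P450 enzymes, 1 lay higher and 3 lower. Limma, edgeR and DESeq2 each called 0 of them. The reductase gene Por averaged 5348 ± 238 normalized counts after anti-CD73 and 4503 ± 553 in controls (log2 fold change 0.25, SE 0.12, limma adjusted p = 0.371). The cytochrome b5 genes Cyb5b and Cyb5a had -0.32 (SE 0.15) and -0.20 (SE 0.12). Leaving out control replicate 1 gave 0.15 for Por and -0.15 for Cyb5b. Limma then called 1 of the 4, Cyb5r3 (-0.43), as lower and 0 as higher, against 10.3% of all genes lower and 11.9% higher.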
